A study of Mus musculus with 12 samples.

Results

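The 10 genes examined mark the resident macrophages of the cochlea, and were followed in each mouse: the receptors Csf1r, Cx3cr1 and Ptprc, the complement C1q chains C1qa, C1qb and C1qc, the scavenger receptors Mrc1 and Cd163, and the genes Aif1 and Cd68. They were taken from the count table by their symbols, with no use of their values, and are 10 of 28686 symbols. All 10 were found in every one of the 12 libraries and all 10 were among the 18459 genes tested. RNA was sequenced from cochlear tissue of 6 mutants and 6 controls at P6 to find what the loss of the Notch ligand JAG1 changes in the maturing cochlea. Every pup received tamoxifen at P0 and P1, and the strain was C57BL/6;129SV in both groups. The study's methods also name an FVB/n background for the floxed Jag1 line. The mutants were Sox2CreER/+Jag1fl/fl, in which tamoxifen lets a recombinase made from the Sox2 locus cut the floxed Jag1 gene. The controls were Sox2+/+ littermates, which per the study's methods carried 1 or 2 floxed copies of Jag1 and no CreER allele. The mutants therefore also carry CreER in a copy of Sox2. An effect of CreER in cells under tamoxifen, or of the altered Sox2 copy, cannot be told apart from an effect of Jag1. Sox2CreER is known to act in supporting cells of the organ of Corti, and whether it acts in macrophages was not tested. Mice came from at least 2 litters and from both sexes, without a record of which mouse was which.

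Macrophages settle in the cochlea before birth and are found in the spiral ganglion, the lateral wall and around the sensory epithelium, where they clear debris and dying cells. CSF1R binds CSF1 and IL-34 and keeps them alive, and CX3CR1 binds fractalkine, a ligand carried by neurons and endothelium. C1q, which starts the classical complement pathway and tags cells and synapses for removal, is built from equal parts of 3 chains and is made in most tissues by macrophages and microglia.

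Jag1 itself stood at 102 ± 14.7 CPM (counts per 1000000 counts of a library, scaled by the TMM factors; SD, n = 6) in controls against 36.4 ± 6.56 CPM in mutants, which is 35.7% of the control level. It fell by 1.48 on the log2 scale, with an adjusted p of 0.000258 by the quasi-likelihood test of edgeR. In all, 35 genes or 0.19% of those tested passed it at an adjusted p under 0.05. The libraries held between 28498549 and 36134983 counts, so that Cd163, the scarcest of the 10 genes, still had 42 to 131 counts in a mouse and Csf1r had 3194 to 4612. Hair cell genes (Myo6, 318 ± 19.3 CPM in controls) and supporting cell genes (Gjb2, 1320 ± 92.9 CPM) were plentiful, but so were mesenchymal genes (Col1a2, 5782 ± 787 CPM), so the tissue held more than the sensory epithelium.

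All of the 10 genes were lower in mutants than in controls by their log2 fold change, and none passed the adjusted test in edgeR. Their median log2 fold change was -0.22, against 0.00 for all genes tested, of which 49.1% lay below 0. At an unadjusted p under 0.05 there were 5 of the 10, all lower in mutants (Csf1r, Cx3cr1, Ptprc, Cd68 and Mrc1). This count was 2 without control 2 or without mutant 4, and 3 without control 4, control 6 or mutant 2. It was also 3 with the replicate number as a block, and 0 with neuron and Schwann cell levels as covariates. With those covariates 518 of all 18459 genes had an unadjusted p under 0.05, against 1949 in the main fit. In the main fit, 4.04% of all genes were lower at that level and 10.6% differed in either direction. DESeq2 called 1 of the 10, Csf1r, where it called 3.35% of all genes, and limma-voom called none. In whole tissue, fewer macrophages and less RNA of these genes per macrophage cannot be told apart.

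**Figure D1:**
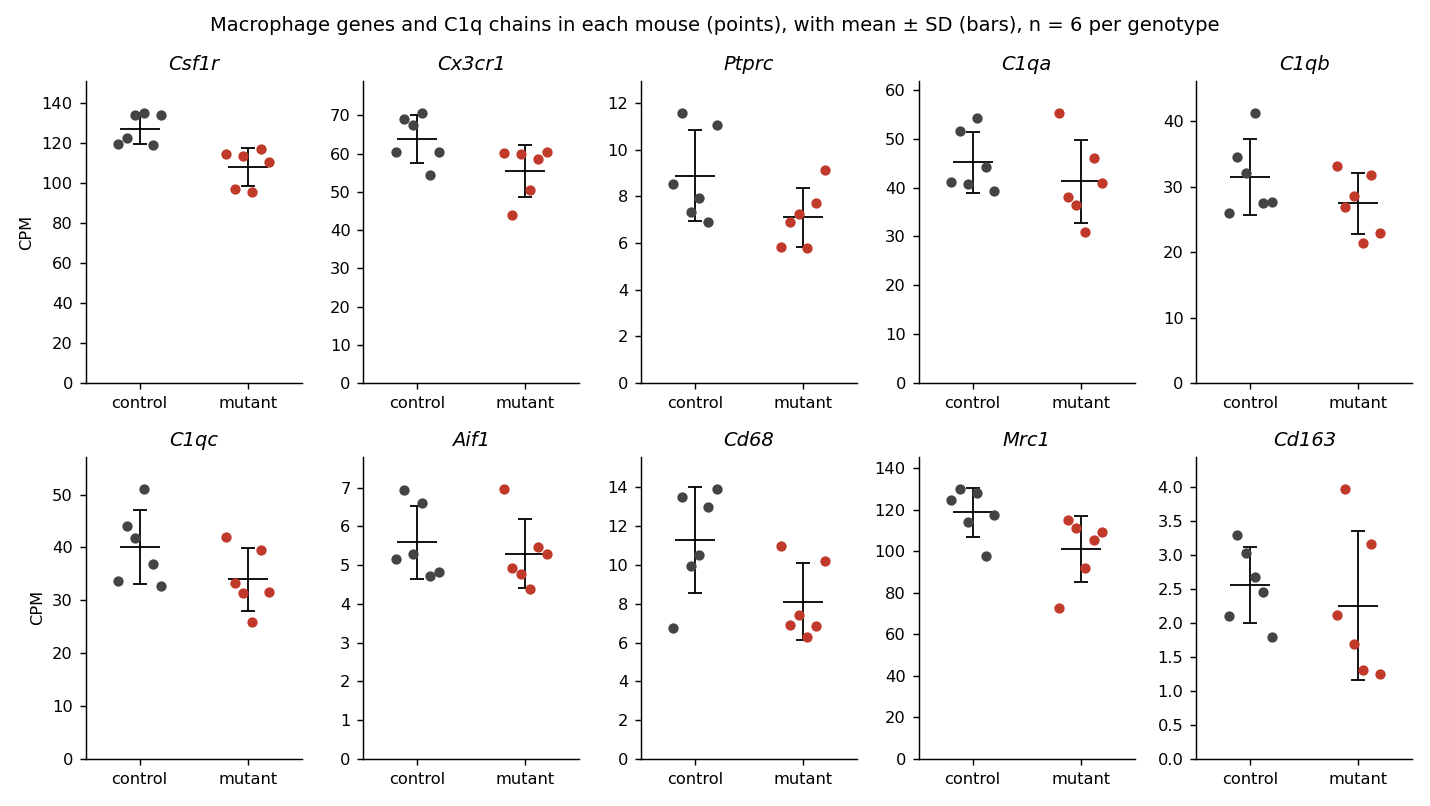
CPM of each of the 10 genes in each mouse (points; controls dark, mutants red), with the mean and SD of 6 mice per genotype. The ranges of the genotypes do not overlap for Csf1r, where the mutants lie between 95.5 and 117 CPM and the controls between 119 and 135 CPM, and overlap for the other 9.

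Csf1r encodes the receptor on which macrophage survival depends. It lies at chr18:61100598-61132149 on the plus strand (ENSMUSG00000024621; GENCODE M21 on GRCm38, as for all positions of genes here). The controls held 119, 119.8, 122, 134, 134 and 135 CPM, and the mutants 95.5, 96.9, 111, 113, 115 and 117 CPM. Every mutant was thus below every control, although the highest mutant and the lowest control differed by less than the spread within either genotype. The mean of the controls was 127 ± 7.69 CPM and that of the mutants 108 ± 9.37 CPM (SD, n = 6), so that mutants held 84.8% of the control level (95% interval 77.0% to 93.6%). In edgeR this was a log2 fold change of -0.24 (SE 0.07), with an adjusted p of 0.126 (0.00277 before adjustment). DESeq2 gave an adjusted p of 0.0253 for the same difference. The exact two-sided permutation test gave p = 0.00216, the smallest that 6 mice against 6 allow. Ranges that do not overlap were seen in 0.997% of all genes tested. In the annotation 873 of the 5774 exonic bases of Csf1r (15.1%) also belong to exons of Hmgxb3 on the other strand, and the strand setting of the counting is not given in the sources used here, so that reads of the pair cannot be told apart there.

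Cx3cr1, the fractalkine receptor (chr9:119901616-120069879, minus strand, ENSMUSG00000052336), ranged from 54.5 to 70.5 CPM in controls, with a median of 64.1 CPM. In mutants it ranged from 44.1 to 60.5 CPM, with a median of 59.2 CPM. The ranges overlapped, with 2 mutants below the lowest control and 4 controls above the highest mutant. The log2 fold change was -0.20 (SE 0.09), with an adjusted p of 0.443 in edgeR, and the exact permutation p was 0.0476. Ptprc, which encodes the phosphatase CD45 of all white blood cells (chr1:138062861-138175708, minus strand, ENSMUSG00000026395), was at 6.91, 8.23 and 11.5 CPM (lowest, median and highest) in controls. In mutants these values were 5.79, 7.06 and 9.11 CPM. The controls spread widely, with controls 2 and 6 above all the other mice. The log2 fold change of Ptprc was -0.32 (SE 0.15), with an adjusted p of 0.471 in edgeR and an exact permutation p of 0.0887.

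The C1q chains lie side by side on chromosome 4, all on the minus strand, in a stretch of 18675 bases. C1qb is at chr4:136880129-136886187 (ENSMUSG00000036905), C1qc follows 3616 bases on at chr4:136889804-136893065 (ENSMUSG00000036896), and C1qa follows 2851 bases after that at chr4:136895917-136898803 (ENSMUSG00000036887). None of their exons is shared with another gene. C1qa was at 39.2, 42.7 and 54.2 CPM (lowest, median and highest) in controls and at 31.0, 39.5 and 55.2 CPM in mutants, where mutant 1 was the highest of all 12 mice. C1qb was at 25.9, 29.9 and 41.2 CPM in controls and at 21.4, 27.7 and 33.1 CPM in mutants. C1qc was at 32.8, 39.4 and 51.0 CPM in controls and at 25.9, 32.5 and 42.0 CPM in mutants. For each chain the genotypes overlapped, and mutant 4 was the lowest mouse. The log2 fold changes were -0.13 (SE 0.13) for C1qa, -0.20 (SE 0.13) for C1qb and -0.24 (SE 0.13) for C1qc, with adjusted p of 0.829, 0.699 and 0.574 in edgeR. The 95% intervals reached from 75.7% to 110% of the control level for C1qa, from 71.9% to 106% for C1qb and from 70.2% to 102% for C1qc.

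The ratios of the chains overlapped between the genotypes. C1qa over C1qb was between 1.27 and 1.61 in controls and between 1.27 and 1.79 in mutants, and C1qa over C1qc was between 0.972 and 1.22 in controls and between 1.14 and 1.31 in mutants. The summed CPM of the 3 chains divided by that of Csf1r was 0.917 ± 0.133 in controls and 0.947 ± 0.124 in mutants (SD, n = 6), a difference well within the spread of either genotype.

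Aif1 encodes IBA1, the calcium-binding protein stained in most work on cochlear macrophages (chr17:35170991-35176068, minus strand, ENSMUSG00000024397). It was at 4.71, 5.23 and 6.93 CPM (lowest, median and highest) in controls and at 4.38, 5.10 and 6.96 CPM in mutants. Its log2 fold change was -0.08 (SE 0.14), the nearest to 0 of the 10, with an adjusted p of 0.926 in edgeR. The 95% interval ran from 77.4% to 116% of the control level, which includes the size of the Csf1r difference. Cd68, a glycoprotein of lysosomes that is abundant in phagocytes (chr11:69664213-69666153, minus strand, ENSMUSG00000018774), had the largest log2 fold change of the 10, -0.48 (SE 0.18), with an adjusted p of 0.321 in edgeR. The controls held 6.77, 9.97, 10.5, 13.01, 13.5 and 13.9 CPM and the mutants 6.31, 6.84, 6.92, 7.43, 10.2 and 10.98 CPM. Control 1 thus lay among the lower mutants, while mutants 1 and 6 lay among the controls. The exact permutation p for Cd68 was 0.0628.

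Mrc1 encodes the mannose receptor CD206 of tissue macrophages (chr2:14229392-14332057, plus strand, ENSMUSG00000026712). It was at 97.9, 121 and 130 CPM (lowest, median and highest) in controls and at 72.5, 107 and 115 CPM in mutants. Mutant 1, the mouse with the most C1qa, had the least Mrc1. Its log2 fold change was -0.23 (SE 0.10), with an adjusted p of 0.443 in edgeR and an exact permutation p of 0.0584. Cd163, the receptor that takes up haemoglobin bound to haptoglobin (chr6:124304656-124330527, plus strand, ENSMUSG00000008845), was at 1.80, 2.57 and 3.30 CPM in controls and at 1.25, 1.91 and 3.97 CPM in mutants. Among mutants its SD was 48.7% of the mean, the largest relative spread of the 10 genes. The log2 fold change of Cd163 was -0.18 (SE 0.27), with an adjusted p of 0.911 in edgeR, and the 95% interval from 58.6% to 132% of the control level holds both a lower and a higher level.

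**Figure D2:**
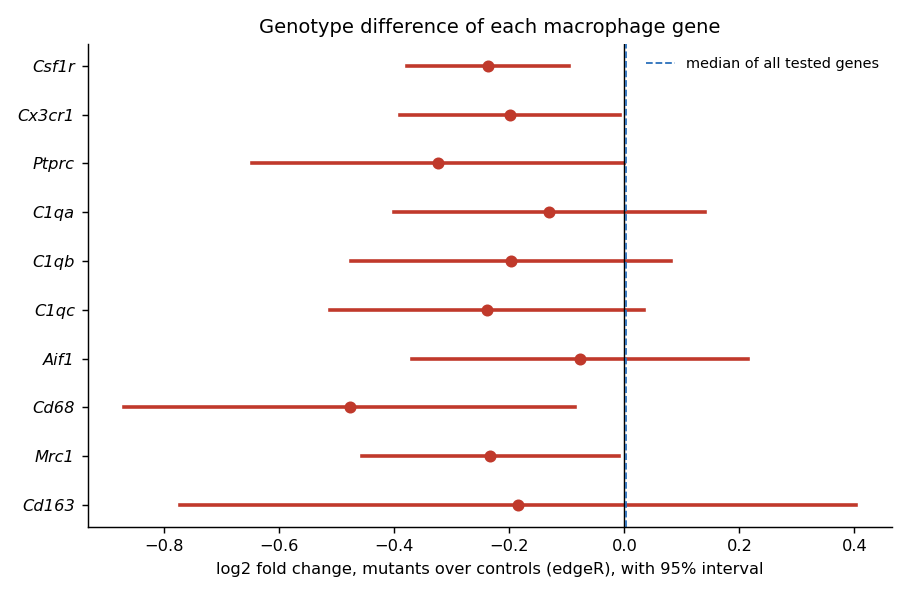
Log2 fold change of each gene, mutants over controls, with its 95% interval from edgeR; the solid line is 0 and the dashed line the median of the 18459 genes tested. All 10 points lie left of 0, and the intervals of C1qa, C1qb, C1qc, Aif1 and Cd163 cross 0.

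Some mice were high or low for many of the genes at once. Among mutants, mutant 4 had the lowest value for 7 of the 10 genes and mutant 1 the highest for 5. Among controls, control 4 was the highest for 5 genes and control 5 the lowest for 5. The summed CPM of the 10 genes was between 407 and 508 in controls (median 449) and between 334 and 422 in mutants (median 402). This sum is led by Csf1r and Mrc1, which have the most counts of the 10.

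Levels of different genes can be set against each other only per length. Per kilobase of merged exons, the order of the mean levels in controls was C1qa (43.4 CPM per kilobase), C1qb (28.9), Csf1r (22.05), C1qc (20.7), Mrc1 (18.6), Cx3cr1 (14.2), Cd68 (8.98), Aif1 (3.65), Ptprc (0.485) and Cd163 (0.469). In this order the ranges of neighbours over the 6 controls did not overlap between C1qb and Csf1r, between Cx3cr1 and Cd68, between Cd68 and Aif1, and between Aif1 and Ptprc. The other neighbours, C1qa and C1qb, Csf1r and C1qc, C1qc and Mrc1, Mrc1 and Cx3cr1, and Ptprc and Cd163, had ranges that overlapped. Within single mice, C1qa was above C1qb in all 12 and Mrc1 above Cx3cr1 in 6 controls and 5 mutants. The order of Csf1r and C1qc (Csf1r higher in 4 controls and 3 mutants), of C1qc and Mrc1 (C1qc higher in 4 controls and 2 mutants) and of Ptprc and Cd163 (Ptprc higher in 3 of each genotype) changed from mouse to mouse. In mutants the order was the same except that Cd163 stood before Ptprc. With the length of the longest transcript in place of the merged exons, C1qc moved up to 33.3 CPM per kilobase in controls and stood between C1qa and C1qb, and Csf1r stood at 27.1 CPM per kilobase below C1qb. The places of the 3 genes between C1qa and Mrc1 thus depend on the gene model. Ptprc, whose merged exons span 18313 bases against 5740 in its longest transcript, had the largest relative change, from 0.485 to 1.55 CPM per kilobase.

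**Figure D3:**
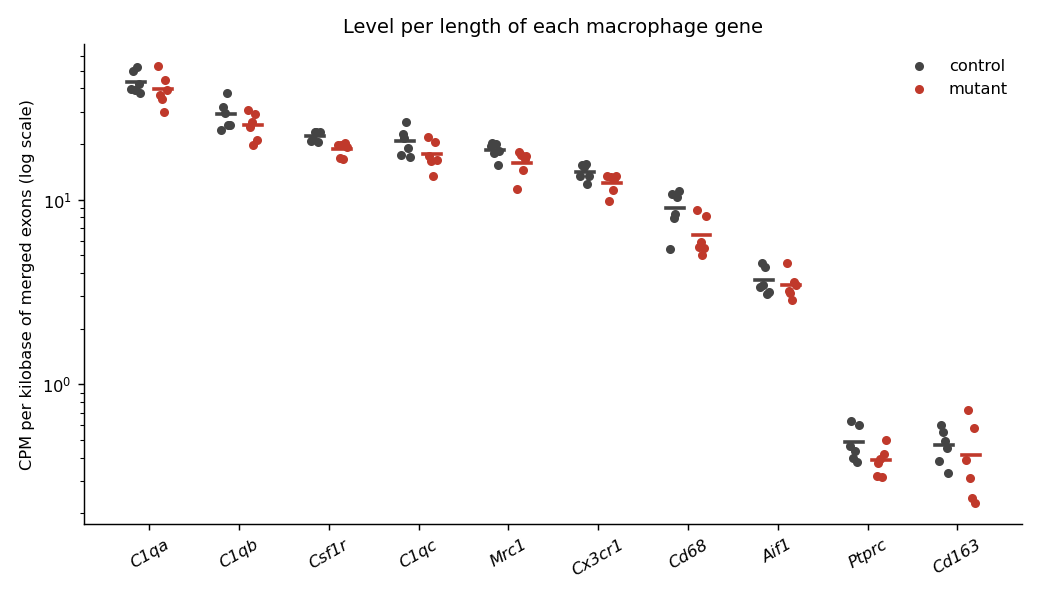
CPM per kilobase of merged exons (log scale) of each gene in each mouse, in the order of the control means; bars are the means of 6 controls (dark) or 6 mutants (red). The C1q chains, Csf1r, Mrc1 and Cx3cr1 lie between 9.78 and 53.0 CPM per kilobase, and Ptprc and Cd163 lie below 1 in every mouse.

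Between mice of the same genotype, the C1q chains and Aif1 varied together. The correlations were taken over 12 mice from log2(CPM + 0.1) after the mean of each genotype was removed, with permutation within genotypes, and all 45 pairs of the 10 genes were examined, a family chosen after their values were seen. All points of a pair share their library and its scaling factor. For 6 pairs the Benjamini-Hochberg adjusted permutation p of Pearson's r was under 0.05, and these are the 6 pairs among C1qa, C1qb, C1qc and Aif1. When each mouse was left out in turn, 4 to 6 pairs passed, all among these 4 genes. C1qb and C1qc had the closest relation, with r = 0.94 (adjusted permutation p = 0.00390) and Spearman's rho = 0.90 (adjusted permutation p = 0.0110), and r was 0.88 without the 2 mice farthest from the median. C1qa and Aif1, which lie on different chromosomes, had r = 0.91 (adjusted permutation p = 0.00390) and rho = 0.87 (adjusted permutation p = 0.0180). C1qa and C1qc had r = 0.90 and rho = 0.85, and C1qc and Aif1 had r = 0.85 and rho = 0.91.

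The relation was looser for the remaining pairs of that group, C1qa with C1qb (r = 0.79, rho = 0.69) and C1qb with Aif1 (r = 0.78, rho = 0.76). The adjusted permutation p of r was 0.0316 for both, but that of rho was 0.114 for C1qa with C1qb and 0.0767 for C1qb with Aif1. Within each genotype alone, r among these 6 pairs lay between 0.82 and 0.97 in controls and between 0.72 and 0.97 in mutants, so that it was seen in both. Of all 45 pairs, 33 had r above 0 and 12 below 0. For Mrc1 the pooled values rest on mutant 1, which had the least Mrc1 and the most C1qa. Over all 12 mice its r was between -0.38 and 0.19 with 8 of the other 9 genes, and 0.61 with Ptprc (adjusted permutation p = 0.181). With Aif1 it was -0.12 over 12 mice, 0.75 in controls, -0.66 in mutants and 0.69 without mutant 1. With C1qa these values were -0.23, 0.45, -0.51 and 0.49, and with Cx3cr1 they were 0.06, 0.77, -0.28 and 0.40. No pair of Mrc1 passed adjustment with or without mutant 1.

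**Figure D4:**
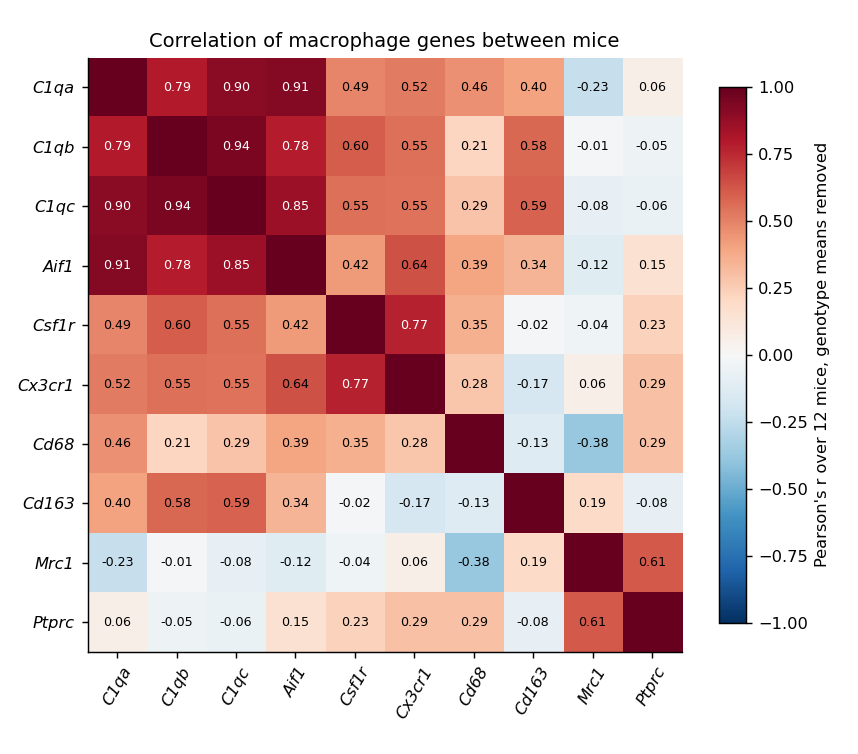
Pearson's r of each pair of the 10 genes over 12 mice, on log2(CPM + 0.1) with genotype means removed (red above 0, blue below 0). The block at the upper left holds C1qa, C1qb, C1qc and Aif1, with r from 0.78 to 0.94; the row of Mrc1, near or below 0 except for Ptprc at 0.61, rests on mutant 1 and is above 0 for 8 of the 9 genes without it.

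Csf1r was also set against the other 9 genes and against markers of other cell types, among them Tubb3 of neurons and Alas2 of erythroid cells, within genotypes. None of the 12 relations computed passed adjustment over the 12. The strongest was with Cx3cr1, with r = 0.77 (permutation p = 0.00915, adjusted 0.110) and rho = 0.59 (permutation p = 0.0628, adjusted 0.188). Without mutants 2 and 4, which are farthest from the median of Csf1r, r was 0.50, so the relation rests largely on these 2 mice. The relation with Tubb3 was negative, with r = -0.68 (permutation p = 0.0280, adjusted 0.168) and rho = -0.44 (permutation p = 0.250), and r was -0.30 without mutants 2 and 4. Without mutant 1 the relation with Tubb3 passed, at r = -0.78 and an adjusted permutation p of 0.0210. The values for Alas2 (r = 0.01), Mrc1 (-0.04) and Cd163 (-0.02) were small.

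The genes outside the 10 that followed them most closely between mice were ranked by the correlation of their level with the mean standardized level of the 10, among the 14182 genes whose mean count reached 50. This ranking is a description, without a test. Among the nearest were Pld4 (r = 0.92), a nuclease of endolysosomes in phagocytes, Ufsp2 (0.91), Ctla2b (0.90) and Tmem238 (0.88). Below them came Apobr (0.87), Lzts2 (0.86), Zbtb2 (0.85), Tpm3 (0.84) and Nit1 (0.83). Pld4 did not share the lower mean of the 10 genes in mutants, with a log2 fold change of -0.03 (SE 0.12) and an adjusted p of 0.968 in edgeR. Each of the 10 was likewise set against the mean of the other 9. C1qc was the closest (r = 0.84), followed by C1qb (0.81), Aif1 (0.80) and C1qa (0.79), and Mrc1 was the farthest (0.00), although without mutant 1 its r was 0.60.

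Since the C1q chains varied together, the sequence before the start of C1qb and C1qc is shown, the pair with the closest relation. The windows are the 250 bases before the RefSeq start on GRCm38.p6, written 5′ to 3′ on the strand of the gene. For C1qc the window ends where the longer gene model of GENCODE begins, which leaves 99 bases. Capitals mark GAGGAA, the purine-rich core that the macrophage factor PU.1 is known to bind, or its reverse complement TTCCTC, which in C1qc is part of ACTTCCTC, the reverse complement of the longer GAGGAAGT.
C1qb, chr4:136886201-136886450, minus strand: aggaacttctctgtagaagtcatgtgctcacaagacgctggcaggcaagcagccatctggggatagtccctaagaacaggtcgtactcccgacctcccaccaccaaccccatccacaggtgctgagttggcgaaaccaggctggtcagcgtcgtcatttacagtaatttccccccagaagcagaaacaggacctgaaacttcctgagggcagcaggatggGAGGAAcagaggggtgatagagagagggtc
C1qc, chr4:136893066-136893164, minus strand: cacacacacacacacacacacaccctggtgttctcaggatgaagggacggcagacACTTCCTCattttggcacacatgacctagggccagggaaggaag

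GAGGAA on either strand stood 30 bases before the start of C1qb, 193 before that of C1qc and 180, 167 and 35 before that of Mrc1. It was also found 225 bases before the start of Cd68 and 158 before a RefSeq start of Ptprc, in a window that lies inside the GENCODE gene. Another match stood 7 bases before the start of Aif1, where GENCODE already places the first exon. The 8 genes with an entry had 9 windows, and 6 of these 9 held it, those of Ptprc and Aif1 just named included. The windows of Cx3cr1 and Cd163 and another window of Ptprc did not. Of 32851 promoter windows of the same length, 23.3% held it. The longer GAGGAAGT, which contains GAGGAA, was found in C1qc and in 2.44% of all windows. TGCTGAC, part of the site that large MAF factors are known to bind, was found in no window of the 8 genes and in 3.81% of all windows. Csf1r and C1qa had no entry among the promoter sequences. The matches are letters in a window, not binding sites.

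Other genes expressed across macrophages were close to the 10 in their values. Of 20 such genes, 19 had a log2 fold change below 0, with a median of -0.27, and 6 had an unadjusted p under 0.05, all lower in mutants. That count was 2 without control 2, 3 without control 6, mutant 2 or mutant 4, 4 without control 4 and 9 without control 1. It was 0 with neuron and Schwann cell covariates, where 518 of the 18459 genes tested reached that level. None was called by edgeR or limma-voom and 1 was called by DESeq2, Laptm5, a lysosomal membrane protein of blood cells. Laptm5 was at 33.3, 43.8 and 47.2 CPM (lowest, median and highest) in controls and at 27.6, 33.8 and 39.3 CPM in mutants, with a log2 fold change of -0.34 (SE 0.10) and an adjusted p of 0.129 in edgeR and 0.0343 in DESeq2. Lcp1, which bundles actin in leukocytes, was at -0.27 (SE 0.08) with an adjusted p of 0.167 in edgeR. Mertk, a receptor by which macrophages take up dying cells, had the highest value of the 20, at 0.13 (SE 0.11). Lyz2 stood apart in 1 mouse, with 94.1 CPM in control 2 against 17.4 to 30.9 CPM in the other 11, while control 2 was among the highest controls for Ptprc and Cd68 as well.

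Genes of tissue-resident macrophages, the class to which Mrc1 and Cd163 belong, gave 11 tested genes of 12, with Vsig4 left out at no more than 2 counts in a mouse. All 11 had a log2 fold change below 0, with a median of -0.23. At an unadjusted p under 0.05 there were 2, none was called by edgeR or limma-voom, and DESeq2 called Stab1. Stab1, a scavenger receptor also made by some endothelium, was at 142 ± 12.2 CPM in controls against 121 ± 8.88 CPM in mutants, a log2 fold change of -0.23 (SE 0.07) with an adjusted p of 0.143 in edgeR and 0.0359 in DESeq2. Cbr2 was at -0.32 (SE 0.12), and Igf1, the most abundant of the list at 979 ± 164 CPM in controls but made by mesenchyme as well, was at -0.02 (SE 0.13).

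Genes enriched in microglia, the macrophages of the brain, had a median log2 fold change of -0.04 over 10 genes, with 6 below 0. At an unadjusted p under 0.05 there were 2, both higher in mutants, with none called by edgeR or limma-voom and 1 by DESeq2. Olfml3, a secreted protein that is not limited to macrophages, was at 21.99, 28.1 and 31.3 CPM (lowest, median and highest) in controls and at 27.9, 40.1 and 44.3 CPM in mutants. Mutant 1 was within the range of the controls and the other 5 mutants were above it. For Olfml3 the log2 fold change was 0.48 (SE 0.11), with an adjusted p of 0.0836 in edgeR and 0.00426 in DESeq2. In edgeR it passed without mutant 1 (adjusted p = 0.0151) and with the replicate number as a block (the replicate block, adjusted p = 0.0391). The labels do not say whether these numbers pair the mice. P2ry12, the ADP receptor of resting microglia, was at 5.65, 7.14 and 8.13 CPM in controls and at 6.41, 8.67 and 12.03 CPM in mutants, a log2 fold change of 0.40 (SE 0.15) with an adjusted p of 0.315 in edgeR. Sparc, which in this tissue reached 7648 ± 884 CPM in controls and is made by many connective tissue cells, was at -0.06 (SE 0.10).

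The ligands of the receptors and the factors that make macrophages gave 11 tested genes of 12, 7 of them below 0, with a median of -0.13. Csf2 is not analysed here. At an unadjusted p under 0.05 there were 3, all lower in mutants, and none was called by edgeR, DESeq2 or limma-voom. Cx3cl1, which encodes fractalkine, was at 59.8 ± 7.62 CPM in controls against 49.9 ± 5.22 CPM in mutants, a log2 fold change of -0.26 (SE 0.09) with an adjusted p of 0.240 in edgeR. Csf1, which encodes a ligand of CSF1R, was at 40.0 ± 2.73 CPM and 35.6 ± 3.62 CPM, a log2 fold change of -0.17 (SE 0.08) with an adjusted p of 0.442, and Il34, which encodes the other, was at -0.08 (SE 0.11) with an adjusted p of 0.889 in edgeR. Spi1, which encodes PU.1, was at 7.33 ± 1.03 CPM in controls against 5.35 ± 1.15 CPM in mutants, with a log2 fold change of -0.46 (SE 0.15) and an adjusted p of 0.193 in edgeR. Maf was at 0.02 (SE 0.12).

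Complement beyond C1q gave 21 tested genes of 24, with 16 below 0 and a median of -0.17. At an unadjusted p under 0.05, 2 were lower in mutants and 1 was higher, none was called by edgeR or limma-voom, and DESeq2 called 1. Cfi, the protease that inactivates C3b and C4b, was at 4.47 ± 0.695 CPM in controls against 7.02 ± 1.75 CPM in mutants, a log2 fold change of 0.65 (SE 0.17) with an adjusted p of 0.105 in edgeR and 0.0108 in DESeq2. C2, which C1s cleaves after C1q has bound, was at -0.25 (SE 0.09) with an adjusted p of 0.258 in edgeR. Clu, a fluid-phase inhibitor, was at 0.08 (SE 0.07).

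Of 20 inflammatory cytokines, chemokines and related genes 16 were tested, of which 13 had a control mean under 3 CPM, and among those left out Il6 and Il10 had no more than 2 counts in a mouse. The median log2 fold change was -0.44, with 13 of 16 below 0, and 1 had an unadjusted p under 0.05, Tgfb1, at -0.28 (SE 0.12) with an adjusted p of 0.378 in edgeR. None was called by edgeR, DESeq2 or limma-voom. Ccl7, at 1.25 ± 0.406 CPM in controls, was at -0.48 (SE 0.25). Spp1 at -0.11 (SE 0.15) and Gpnmb at -0.03 (SE 0.12), the most abundant of the list, are also made by cells other than macrophages.

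**Figure D5:**
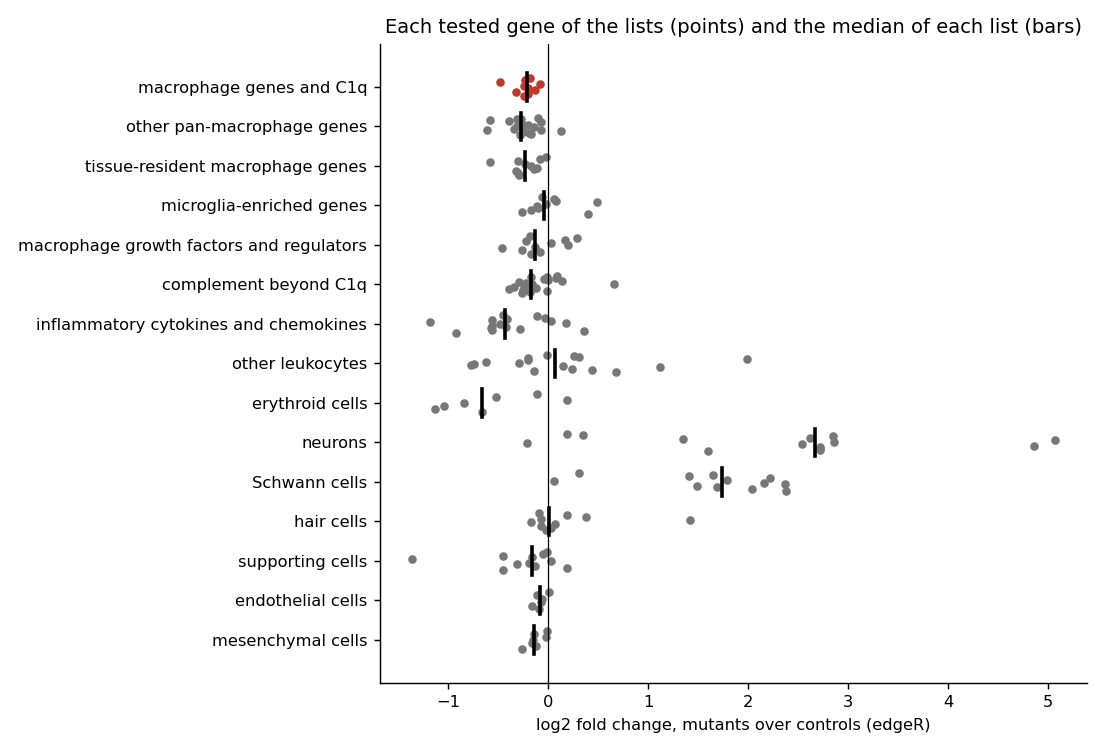
Log2 fold change, mutants over controls, of each tested gene of the 10 macrophage genes (red) and of 14 other lists (grey), with the median of each list (bar). The medians of the macrophage lists lie between -0.27 and -0.04, those of endothelial and mesenchymal genes at -0.08 and -0.14, and those of neurons and Schwann cells at 2.67 and 1.74.

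Blood and nerve varied between the same mice, and their part in the values of the 10 genes was not tested. Genes of other leukocytes gave 16 tested genes of 24, with 8 below 0, a median of 0.06 and a summed level of 10.8 to 59.8 CPM in controls and 8.36 to 49.2 CPM in mutants. The highest sums came with neutrophil genes, as S100a9 was at 20.1 CPM in control 6 and 12.3 CPM in mutant 6, at 4.91 CPM in control 5 and at no more than 1.30 CPM in the other 9 mice. Without control 6 and mutant 6 the log2 fold change of Csf1r was -0.23 (SE 0.08), with an adjusted p of 0.333 in edgeR, and that of Ptprc -0.34 (SE 0.15). Erythroid genes were at a summed level of 114 to 326 CPM in controls and 56.3 to 202 CPM in mutants, with 6 of 7 tested genes below 0 and a median of -0.66. None of the genes of other leukocytes or of erythroid cells was called by edgeR, DESeq2 or limma-voom, with 1 of each list at an unadjusted p under 0.05 in edgeR. Without mutant 5, edgeR called Flt3 of the other leukocytes, higher in mutants (adjusted p = 0.0131).

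Neuron and Schwann cell genes differed far more between the genotypes than the macrophage genes. Of 14 neuron genes 13 were above 0 (median 2.67) and 11 had an unadjusted p under 0.05, with a summed level of 212 to 368 CPM in controls and 265 to 1566 CPM in mutants. All 12 Schwann cell genes were above 0 (median 1.74), 11 of them at an unadjusted p under 0.05, with a summed level of 491 to 1468 CPM in controls and 1221 to 6294 CPM in mutants. None of either list was called by edgeR or limma-voom, while DESeq2 called 8 neuron genes and 9 Schwann cell genes, all higher in mutants. In edgeR 7 Schwann cell genes were called with the replicate block, and 3 neuron genes and 3 Schwann cell genes without mutant 5. With the levels of both lists as covariates in the edgeR model, the log2 fold change of Csf1r was -0.09 (SE 0.09) and that of Cx3cr1 was -0.03 (SE 0.14), both with an adjusted p of 1.0. In the same model C1qb was at 0.030 (SE 0.19), and Cd68 was at -0.59. Both lists differ between the genotypes, so this model cannot separate their levels from genotype. Over all genes it called 1, against 35 without the covariates, and without them the SE of Csf1r was 0.07. Mutant 5 had less Tubb3 than any control, at 10.3 CPM against 12.1 to 20.1 CPM, and its Csf1r level of 117 CPM was still below that of every control.

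Of the remaining cell types, endothelial, mesenchymal and supporting cell genes were also mostly below 0, and hair cell genes were not. Endothelial genes had a median log2 fold change of -0.08 (5 of 6 below 0) and mesenchymal genes of -0.14 (7 of 7 below 0), with 1 of each at an unadjusted p under 0.05, Cdh5 at -0.16 (SE 0.07) and Dcn at -0.14 (SE 0.06), and none called by edgeR, DESeq2 or limma-voom. Hair cell genes had a median of 0.01 (5 of 10 below 0), with Pvalb, which auditory neurons make as well, at an unadjusted p under 0.05, called by DESeq2 and, with the replicate block, by edgeR. Supporting cell genes had a median of -0.17 (9 of 11 below 0), and of them Lfng, a glycosyltransferase that modifies Notch, was called by edgeR. It fell by 0.45 on the log2 scale, with an adjusted p of 0.0204. In edgeR it no longer passed without control 2, 4, 5 or 6, without mutant 2 or 6, or with the neuron and Schwann cell covariates. DESeq2 called Lfng and also Sox2 (log2 fold change -0.45, adjusted p = 0.0349) and Hes5 (-1.38, adjusted p = 0.0440), both lower in mutants. With the replicate block edgeR called Lfng and Sox2 (adjusted p = 0.0467). As the mutants carry CreER in a copy of Sox2, an effect of this allele on Sox2 cannot be told apart from one of Jag1. Medians below 0 were thus seen for endothelial (-0.08), mesenchymal (-0.14) and supporting cell genes (-0.17) as well as for the 10 macrophage genes (-0.22). Those of hair cell, neuron and Schwann cell genes were above 0. Whether the macrophage genes differ from these lists was not tested.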

How the data were processed

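RNA-seq of 6 Sox2CreER/+Jag1fl/fl mutants and 6 Sox2+/+ controls was analysed. The deposited counts are whole numbers per gene symbol and library, not normalized and not pooled. Per the submitters' processing notes, Trimmomatic 0.32, STAR 2.4.2a, HTSeq 0.9.1, DESeq2 1.10.1 and the build GRCm38.p4 were used; the strand setting is not given in the sources used here. Another deposited table holds the authors' own comparison and was not used.

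Genes that reached a mean count of 5 were compared by edgeR 4.0.16 (quasi-likelihood test, TMM factors, robust, no covariates; R 4.3.3), with Benjamini-Hochberg adjustment over 18459 genes and a threshold of 0.05. Standard errors are the log2 fold change divided by the square root of F. An exact permutation test of log2(CPM + 0.1) was added for single genes, and relations between genes were tested by 100000 permutations within genotypes (scipy 1.17.1). The scripts were tested on simulated data. Depth was 28498549 to 36134983 counts per library, and the libraries of each genotype differed beyond counting error. The p-values of the genotype tests set the difference between genotypes against the spread between mice, and the litter of each mouse is not recorded.

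The 10 genes and the 14 other lists were chosen with earlier results of these data known. All 10 are named, and from each list the genes called, or else the 2 with the smallest p and the 2 most abundant, as well as Jag1, the ligands Csf1, Il34 and Cx3cl1 and the 10 genes of closest correlation. Some genes that this rule names are not reported here. Lyz2, Vsig4, Il6, Il10 and the markers of neutrophils were named after their values were seen. Gene positions and lengths are from GENCODE M21 on GRCm38 and promoters from RefSeq on GRCm38.p6, in which 8 of the 10 genes have an entry. The alternatives were DESeq2 1.42.0, upper-quartile and RLE factors, limma-voom with limma 3.58.1, a minimum mean count of 20 or none, no robust estimation, a replicate block, neuron and Schwann cell levels as covariates, a pseudocount of 1 and leaving out each mouse. Leaving out both mice with the most S100a9 and the count of list genes under each alternative were added after the data were seen, as were the pairs without each mouse.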

Additional observations from a re-analysis of the deposited data

How the results depend on the processing

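The number of the 10 macrophage genes called was 0 in edgeR and in each alternative except DESeq2, which called 1 (Csf1r). Their log2 fold changes were below 0 under all 22 alternatives, except that C1qb was at 0.030 with neuron and Schwann cell covariates against -0.20 without; the cause was not tested. Csf1r ranged from -0.26 to -0.20 when each mouse was left out, with adjusted p from 0.0801 to 0.268 in edgeR. Over all genes the count called was 35, and it was 619 in DESeq2, 19 in limma-voom, 57 without the filter, 131 with the replicate block, 1 with the covariates, 10 without both mice of highest S100a9 and 14 to 356 when each mouse was left out, with 356 without mutant 5. Over the other lists the count was 1, and it was 25 in DESeq2, 11 with the replicate block, 0 with the covariates, 0 without both mice of highest S100a9 and 0 to 8 when each mouse was left out. Of the 45 pairs, 6 passed, and 4 to 6 when each mouse was left out. Of the relations of Csf1r, 0 to 1 passed when each mouse was left out, the 1 being Tubb3 without mutant 1. The labels do not say whether the replicate numbers pair the mice. The correlation of same-numbered mice was between -0.19 and 0.28 and 2 of 6 correlated best with their own number, which cannot decide it. With the block Csf1r was at -0.24 (adjusted p 0.253 in edgeR) and none of the 10 genes was called. With 6 mice per genotype the 95% intervals were as wide as 58.6% to 132% of the control level (Cd163), and the levels of Aif1, Ptprc, Cd163 and Cd68 rest on 42 to 479 counts in a mouse.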
